A study of Homo sapiens with 33 samples.

Results

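The collagen genes are described here in 3 head and neck squamous cell carcinoma (HNSCC) cell lines that were given cetuximab, a therapeutic antibody against the epidermal growth factor receptor (EGFR). The members are all rows of the deposited count table whose gene symbol is COL, a number, A and a number, which gives 44 genes of 56470 symbols. They were sorted by protein type into 11 fibrillar, 9 basement membrane, 10 FACIT and 14 other collagens. SCC1 (UM-SCC-1), SCC6 (UM-SCC-6) and SCC25 are established lines, and each was cultured with PBS or with 100 nM cetuximab (CTX) that was renewed daily, starting a day after plating. Bulk polyA RNA was sequenced from 33 libraries, 1 for each line, treatment and labelled day, with PBS on days 0 to 5 and CTX on days 1 to 5. The labels of CTX-treated SCC6 give day 2 for 2 libraries, called 2a and 2b here, and day 1 for none. The labels give DMEM with serum and hydrocortisone as the medium of SCC25 and SCC1 and high-glucose DMEM with non-essential amino acids for SCC6, whereas the study's methods give DMEM with Ham's F12 and serum for all lines, so whether the lines differed in medium is not known. Each line is 1 tumour's culture, and the 5 days of a treatment stand in for replicates, so that the p-values below measure the spread between these libraries.

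Collagens are proteins of the extracellular matrix built from 3 chains that wind into a triple helix, and each chain has a gene of its own. Fibrillar collagens such as types I, III and V are cut at their ends outside the cell and packed into fibrils, while type IV collagen forms the sheet-like network of basement membranes, type VII anchors that membrane to the tissue below, and FACIT collagens sit on the surface of fibrils. Epithelial cells are known for making basement membrane collagens and the transmembrane type XVII collagen of the hemidesmosome, whereas fibrillar collagens are made mostly by fibroblasts and are often used as signs of a mesenchymal program in carcinoma cells.

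Several collagen chains are encoded by neighbouring genes that are read in opposite directions from a shared stretch of DNA. The pair COL4A1 and COL4A2 encodes the chains of the most widespread type IV network. RefSeq places their starts on opposite strands with 126 bases between them on GRCh38.p14, at chr13:110307158-110307283. This stretch is shown because both genes moved together in SCC6 with CTX, and it is written on the plus strand from the COL4A1 side to the COL4A2 side, with capitals marking a CCAAT box and a GGGCGG (GC box) match.

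COL4A1 to COL4A2: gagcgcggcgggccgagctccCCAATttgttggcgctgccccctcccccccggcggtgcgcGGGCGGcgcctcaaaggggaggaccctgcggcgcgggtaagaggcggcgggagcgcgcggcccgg

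The pairs COL4A3 with COL4A4 and COL4A5 with COL4A6 are also arranged head to head, with 418 and 1415 bases between their starts. RefSeq promoter windows were found for 32 of the 44 collagens. In the 250 bases before the start and on both strands, GGGCGG was present in 18 of these 32 (56.25%) and in 42.639% of all 35116 promoters, and CCAAT in 9 of 32 (28.125%) and in 32.008%. TGANTCA, which holds the AP-1 letters, was present in 0 of 32 and in 6.573% of all promoters. These are matches of letters and not sites of binding.

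The 33 libraries held 28508758 to 80727478 estimated counts each, and collagens together took 378 to 5610 CPM, the count of a gene relative to the TMM-scaled library size. The titles name 5 flow cells, called A to E here. CTX-treated SCC6 of days 4 and 5 made up flow cell E alone, with 75170052 and 80727478 counts, whereas the other 31 libraries held 28508758 to 52144493. These days of treatment and flow cell E cannot be told apart. In SCC1, PBS of days 0 to 4 lay on flow cell B, and PBS of day 5 on flow cell C with all CTX libraries, so treatment and flow cell largely coincide. In SCC25, all PBS libraries and CTX of days 1 and 2 lay on flow cell A, and CTX of days 3 to 5 on flow cell B. Within SCC6, PBS of days 0 and 1 lay on flow cell C and PBS of days 2 to 5 on flow cell D with CTX 2a, 2b and 3. The median deviation from the line's mean of genes above 60% GC minus that of genes below 45% GC was 0.59 and 0.62 (log2) in the first pair of PBS libraries, −0.60 to −0.34 in the other 4, and 0.82 and 0.43 in CTX days 4 and 5. The same measure was −0.74 in CTX day 3 of SCC25, the lowest of all 33 libraries. The squamous epithelial markers were present in every line, with 12, 11 and 12 of 12 genes at 1 CPM or more with PBS in SCC1, SCC6 and SCC25, although KRT5 was at only 2.38 CPM in SCC6 with PBS.

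Untreated cells of the 3 lines differed in which collagens they expressed. Levels were compared between genes as CPM per kilobase of the longest annotated transcript. COL17A1 (chr10:105791044-105845638, GRCh37), the collagen of the hemidesmosome, had the highest level per kilobase in each line, at 176 ± 16.9 in SCC1, 43.7 ± 30.6 in SCC6 and 359 ± 23.4 in SCC25 (mean ± SD, n = 6 PBS libraries). In SCC1 it was followed by COL4A2 at 47 ± 4.5 and COL8A1, a short-chain network collagen, at 36.3 ± 5.29. In SCC6 the next were COL4A2 at 15.7 ± 8.14 and COL4A1 at 8.97 ± 3.4, whose ranges over libraries overlapped. In SCC25 the fibrillar chain COL5A1 followed at 88.2 ± 8.12 and then COL4A1 at 70.7 ± 6.61. These lower places depend on the length used. Per kilobase of the median transcript length COL17A1 was still first in each line, but COL4A1 (118) was above COL8A1 (68.4) in SCC1, and COL4A1 (290), COL4A2 (276) and COL16A1 (118) were above COL5A1 (88.2) in SCC25.

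Read as CPM by library, COL17A1 was at 821, 945, 1090, 1040, 1010 and 1030 in SCC1 with PBS on days 0 to 5. In SCC6 it went from 505 and 401 on days 0 and 1 to 231, 145, 102 and 86.1 on days 2 to 5, and in SCC25 it lay between 1880 and 2240. The large SD of COL17A1 in SCC6 thus came with a decline over the days of culture, which also ran from flow cell C to flow cell D. With PBS on days 1 to 5, fibrillar collagens took 3.69% ± 0.804 of the summed collagen level per kilobase in SCC1, 7.32% ± 1.03 in SCC6 and 18.6% ± 0.853 in SCC25 (SD, n = 5), and basement membrane collagens took 31.2% ± 2.63, 37.1% ± 5.14 and 23.2% ± 0.996. With median transcript lengths the fibrillar shares were lower in all lines, at 1.68%, 3.04% and 7.84%.

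**Figure D1:**
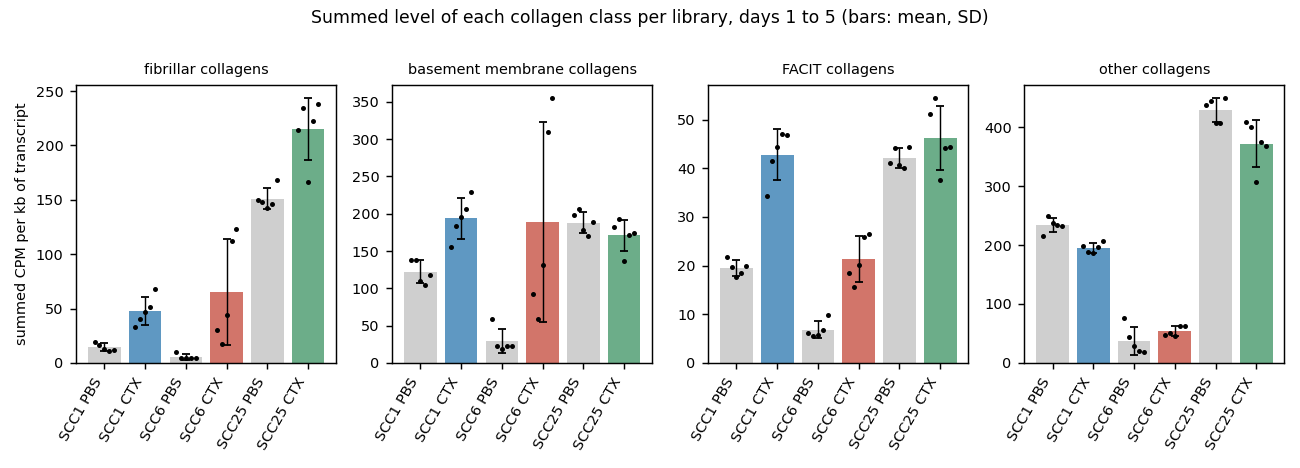
Summed level of each collagen class (CPM per kilobase of the longest transcript, days 1 to 5) in PBS and CTX libraries of the 3 lines, with bars for means, error bars for SD (n = 5) and points for single libraries. In SCC6 the basement membrane sum was 19.3 to 58.5 with PBS and 59.1 to 355 with CTX, while the fibrillar sum of SCC25 was 142 to 168 with PBS and 167 to 238 with CTX.

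Of 35 collagens tested between the untreated lines, 30 differed between SCC6 and SCC1 (8 higher and 22 lower in SCC6), where 69.1% of all genes differed. SCC25 and SCC1 differed in 29 of 35 (23 higher and 6 lower in SCC25, background 69%), and SCC25 and SCC6 in 31 of 35 (27 higher and 4 lower in SCC25, background 72.1%). Some chains were nearly missing from a line. COL4A5 and COL4A6, which build the type IV network of squamous and other stratified epithelia, were at 64.5 to 88.5 CPM in SCC1 with PBS and at 35.6 to 104 CPM in SCC25, but at 0 to 0.0312 CPM in SCC6. COL6A2, a chain of the beaded filament collagen VI, was at 112 to 137 CPM in SCC25 and at 0 to 0.0733 CPM in SCC6. COL13A1, a transmembrane collagen, had no count in any of the 11 SCC1 libraries. The reverse was seen for COL6A5, which was at 0.247 to 0.652 CPM in SCC1 with PBS and had no count in SCC6 or SCC25.

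Many collagens rose with CTX in SCC1 and SCC6, and fewer calls were made in SCC25. In SCC6, 17 of 23 tested collagens were higher and 2 lower with CTX, against 15.6% and 14.6% of all genes tested, and the median log2 fold change was 1.62 for collagens and 0 for all genes. In SCC1, 15 of 27 were higher and 5 lower, against 22.7% and 22.1% of all genes, with medians of 0.68 and 0.02. In SCC25, 9 of 33 were higher and 2 lower, against 8.8% and 9.5% of all genes, with medians of 0.15 and 0.01. Calls were made at an adjusted p under 0.05 in edgeR's quasi-likelihood test. A low-count filter removed the other members of each line, and a gene high in one treatment alone could pass it through that treatment. COL5A1, COL5A2 and COL12A1 were higher in all 3 lines, which is 3 of the 18 collagens tested in each of them, where 3.08% of all such genes were higher. In both SCC1 and SCC6, 10 of the 19 collagens tested in each were higher, against 7.9% of all such genes, and these are 10 of the 15 higher in SCC1 and 10 of the 17 higher in SCC6. COL10A1, COL14A1, COL19A1, COL24A1, COL25A1, COL26A1, COL6A6 and COL9A1 were tested in no line. In bulk RNA, more or fewer cells of a kind cannot be told apart from more or less RNA per cell.

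With the libraries of flow cell D alone (PBS days 2 to 5 against CTX 2a, 2b and 3), 19 of 24 collagens were higher and 2 lower in SCC6, against 15% and 13.5% of all genes in that fit, and the median was 1.25. The increase in SCC6 was thus also present without the 2 libraries of flow cell E and without PBS of day 1. The day used as a replicate block gave 20 higher and 2 lower in SCC6, where COL7A1, COL11A2 and COL17A1 were added, against 23.2% and 22.6% of all genes in that fit. SCC6 has no CTX library of day 1, so the block also leaves PBS day 1 out of the comparison. In SCC1 the block gave 16 higher and 5 lower, where COL6A5 was added, against 24.1% and 23% of all genes. The CTX libraries of SCC1 share their flow cell with PBS day 5 alone, and against it the median collagen change was 0.745. On flow cell A alone, with CTX of days 1 and 2 only, the median in SCC25 was 0.32. The medians of all genes in these single flow cell fits of SCC1 and SCC25 are not given here.

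**Figure D2:**
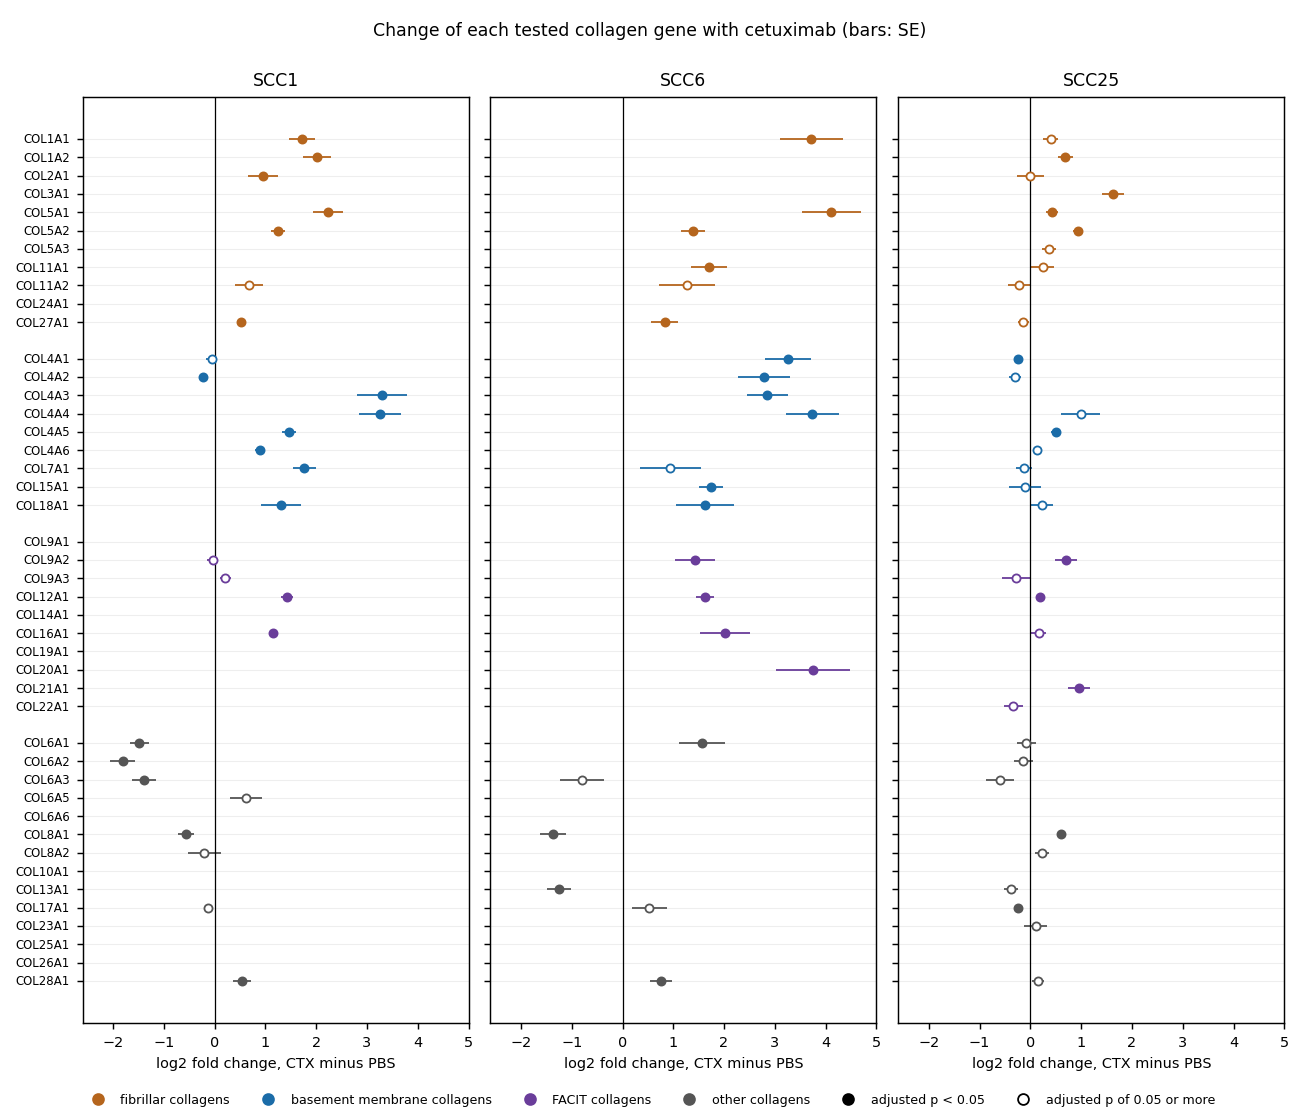
Log2 fold change (CTX over PBS, days 1 to 5, edgeR) of each tested collagen in SCC1, SCC6 and SCC25, ordered by class, with error bars for the standard error and filled points for an adjusted p under 0.05. Most fibrillar and basement membrane points lie above 0 in SCC1 and SCC6, with COL5A1 at 4.11 in SCC6. The collagen VI chains COL6A1, COL6A2 and COL6A3 lie below 0 in SCC1, while COL6A5 lies at 0.62 without a call.

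Most tested fibrillar collagens rose in SCC1 and SCC6, and a minority in SCC25. The calls were 6 of 7 tested in SCC1, 5 of 6 in SCC6 and 4 of 10 in SCC25, with none lower. Of all genes tested, 22.7%, 15.6% and 8.8% were higher in these lines. COL5A1 (chr9:137533649-137736689, GRCh37), a chain of collagen V, which sets the diameter of collagen I fibrils, had the largest fitted fold change in SCC6 among the collagens that passed the count filter. With PBS on days 1 to 5 it was at 53.4, 18.6, 16, 19.4 and 22.1 CPM, and with CTX at 209, 118, 309, 798 and 840 CPM on days 2a, 2b, 3, 4 and 5. Each CTX library lay above each PBS library, and the log2 fold change was 4.11 ± 0.58 (SE, adjusted p = 0.00038), or 3.48 ± 0.26 within flow cell D. In SCC1 COL5A1 was at 75.5, 48.7, 30.4, 27.5 and 29.1 CPM with PBS and at 146, 160, 185, 212 and 284 CPM with CTX on days 1 to 5. The groups did not overlap, and COL5A1 rose by 2.23 ± 0.29 (log2, adjusted p = 5.9e-05). In SCC25, where its level was highest, it was at 756, 726, 646, 700 and 812 CPM with PBS and at 1080, 1160, 681, 980 and 1010 CPM with CTX. There CTX day 3 fell among the PBS values and the change was 0.42 ± 0.12 (adjusted p = 0.029). Without single libraries it was 0.37 to 0.54, and the call was lost for 6 of them, with an adjusted p of up to 0.065. It was 0.62 ± 0.08 (adjusted p = 0.002) on flow cell A alone and 0.41 ± 0.08 (adjusted p = 0.008) with the replicate block.

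Collagen I, the main fibril former of connective tissue, is made of COL1A1 and COL1A2 chains. COL1A1 (chr17:48261462-48278993) was at 4.52, 3.19, 2.51, 2.5 and 2.27 CPM in SCC6 with PBS and at 13.5, 7.75, 22.8, 67.6 and 88.4 CPM with CTX. The groups did not overlap, and COL1A1 rose by 3.72 ± 0.62 (log2, adjusted p = 0.0011), or by 2.49 ± 0.31 within flow cell D. COL1A2 (chr7:94024207-94060539) showed no such increase in SCC6, where it was at 0.139 to 0.403 CPM with PBS on days 1 to 5 and at 0.172 to 0.347 CPM with CTX and was below the count filter. Within flow cell D, where it was tested, the difference was −0.17 ± 0.42 (adjusted p = 0.8).

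In SCC1 both chains of collagen I were higher. COL1A1 was at 20.9, 21, 16.3, 14.7 and 11.7 CPM with PBS and at 30.5, 41.2, 54.9, 60.9 and 88.6 CPM with CTX, and COL1A2 was at 10.4, 11.3, 8.59, 5.71 and 9.25 CPM and at 17.3, 28.4, 38.5, 42.6 and 55.4 CPM. Neither gene's groups overlapped, with log2 fold changes of 1.72 ± 0.26 (adjusted p = 0.00017) and 2.02 ± 0.27 (adjusted p = 8e-05). In SCC25 COL1A2 was at 53.6, 52.8, 68.8, 67.7 and 75.4 CPM with PBS and at 77.7, 98.7, 92.4, 117 and 130 CPM with CTX. It rose by 0.69 ± 0.14 (adjusted p = 0.0059) and by 0.47 ± 0.14 (adjusted p = 0.06) on flow cell A alone, where CTX has days 1 and 2 only. COL1A1 in SCC25 was 53.5 ± 3.92 CPM with PBS and 70.8 ± 17.6 CPM with CTX (SD, n = 5), a difference of 0.40 ± 0.15 that missed the threshold (adjusted p = 0.091) and was lowest in CTX day 3 at 42.5 CPM. On flow cell A alone, COL1A1 was higher by 0.54 ± 0.08 (adjusted p = 0.0031).

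COL3A1 (chr2:189839099-189877472), the collagen of fine reticular fibres, and its neighbour COL5A2 had the largest changes in SCC25 among the called collagens of at least 1 CPM. COL3A1 was at 12.4, 12.3, 15, 17.1 and 20.3 CPM with PBS and at 30.2, 36.9, 42.1, 60.2 and 68.9 CPM with CTX, without overlap. The log2 fold change was 1.62 ± 0.22 (adjusted p = 0.00067), a 3.07-fold increase. COL5A2 was at 129, 135, 142, 145 and 158 CPM with PBS and at 215, 255, 265, 299 and 319 CPM with CTX, again without overlap, and rose by 0.93 ± 0.10 (adjusted p = 0.00014). In SCC6 COL3A1 was below the count filter and was seen almost wholly with CTX. The 5 PBS libraries held 5 counts in all and the 5 CTX libraries 1832, which corrected for depth is a ratio of 218 (95% interval 93.2 to 672, counting error only), and its CPM with CTX were 0.618, 0.158, 1.72, 6.64 and 17.8. In SCC1 it was also below the count filter, at 0 to 0.0225 CPM with PBS on days 1 to 5 and 0.0449 to 0.123 CPM with CTX. The groups did not overlap, but they rested on 1 count with PBS and 19 with CTX. Corrected for depth this is a ratio of 20.1 (95% interval 3.19 to 833, counting error only).

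In SCC1 and SCC6 the other tested fibrillar members changed less than COL5A1. COL5A2 rose 2.38-fold in SCC1 (1.25 ± 0.13, adjusted p = 1.3e-05) and 2.62-fold in SCC6 (1.39 ± 0.24, adjusted p = 0.0013). COL27A1, a cartilage collagen, rose 1.44-fold in SCC1 and 1.78-fold in SCC6 and was at 138 ± 10.4 CPM with PBS and 126 ± 20.5 CPM with CTX in SCC25 (adjusted p = 0.39). COL11A1 rose 3.25-fold in SCC6 from a low level, 0.338 ± 0.14 to 1.10 ± 0.419 CPM. COL2A1 was called higher in SCC1 at 0.433 ± 0.178 and 0.831 ± 0.25 CPM, a level at which few reads decide the value. COL11A2 in SCC6 was at 0.534 ± 0.284 and 1.28 ± 1.05 CPM (adjusted p = 0.11, or 0.024 with the replicate block, which leaves out PBS day 1). The 2 highest CTX values of COL11A2, 2.34 and 2.5 CPM, were on flow cell E.

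Basement membrane collagens rose in SCC6 and SCC1, with few calls in SCC25. In SCC6, 6 of 7 tested were higher and none lower, against 15.6% and 14.6% of all genes. In SCC1 6 of 8 were higher and 1 lower, against 22.7% and 22.1%. In SCC25 1 of 8 was higher and 1 lower (12.5% each), near the 8.8% and 9.5% of all genes. COL4A1 (chr13:110801310-110959504) was at 73.3, 44.6, 39.1, 45.4 and 52.8 CPM in SCC6 with PBS and at 242, 153, 384, 735 and 969 CPM with CTX. COL4A2 (chr13:110958159-111165556) was at 154, 66.9, 58.7, 74.8 and 72.3 CPM and at 275, 163, 384, 1030 and 1130 CPM. For both genes each CTX library lay above each PBS library, for COL4A2 by a narrow margin between CTX 2b at 163 CPM and PBS day 1 at 154 CPM. They rose by 3.26 ± 0.45 (adjusted p = 0.00034) and 2.78 ± 0.51 (adjusted p = 0.002), and by 2.51 ± 0.24 and 2.01 ± 0.22 within flow cell D. The annotated genes overlap at their 5′ ends on GRCh37, and whether strand was used in the counting is not given in the sources used here.

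In SCC1 and SCC25 the same pair did not rise. COL4A1 was 191 ± 22.1 CPM with PBS and 182 ± 20.7 CPM with CTX in SCC1 (SD, n = 5, adjusted p = 0.63), and COL4A2 was lower by 0.22 ± 0.07 (log2, adjusted p = 0.025), a change of −0.15 ± 0.13 (adjusted p = 0.46) against PBS day 5 alone, the single PBS library on the flow cell of the CTX libraries. In SCC25 COL4A1 was at 488, 503, 439, 419 and 414 CPM with PBS and at 392, 407, 341, 395 and 394 CPM with CTX. It was lower by 0.24 ± 0.07 (adjusted p = 0.035), without overlap. COL4A2 in SCC25 was at 436, 465, 382, 358 and 394 CPM and at 374, 386, 236, 321 and 325 CPM, with overlapping groups and a difference of −0.31 ± 0.12 (adjusted p = 0.089).

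The 2 collagens lower in SCC25 were COL4A1 and COL17A1. With the labelled day as a replicate block, 5 were lower, against 14.2% of all genes in that fit, and the 3 added ones were COL4A2 (−0.33 ± 0.07, adjusted p = 0.014), COL13A1 (−0.39 ± 0.08, adjusted p = 0.0078) and COL22A1 (−0.34 ± 0.08, adjusted p = 0.015).

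COL4A3 and COL4A4 encode chains of the type IV network best known from the kidney glomerulus. COL4A4 (chr2:227867430-228029169) was at 0.998, 0.867, 0.927, 0.717 and 0.953 CPM in SCC6 with PBS and at 5.76, 2.68, 9.49, 17.9 and 24.5 CPM with CTX. In SCC1 it was at 2.09, 1.78, 0.883, 1.08 and 0.968 CPM with PBS and at 4.11, 8.89, 13.6, 17.1 and 20.5 CPM with CTX. The groups were separate in both lines, with log2 fold changes of 3.74 ± 0.53 (adjusted p = 0.00037) in SCC6, or 2.80 ± 0.37 within flow cell D, and 3.26 ± 0.41 (adjusted p = 4.5e-05) in SCC1. COL4A3 (chr2:228029340-228179508) was at 0.305, 0.404, 0.21, 0.202 and 0.129 CPM in SCC1 with PBS and at 0.613, 1.64, 2.34, 3.68 and 4.02 CPM with CTX, and rose by 3.30 ± 0.49 (adjusted p = 0.00016). In SCC6 COL4A3 rose by 2.85 ± 0.40 (adjusted p = 0.00039), from 0.21 ± 0.07 to 1.53 ± 0.798 CPM. In SCC25 COL4A4 was at 0.0475 to 0.261 CPM with PBS and at 0.192 to 0.345 CPM with CTX (adjusted p = 0.09), and COL4A3 was below the filter.

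COL4A5 and COL4A6 both rose in SCC1, and COL4A5 alone was called in SCC25. In SCC1 they rose by 1.46 ± 0.14 (adjusted p = 7.8e-06) and 0.90 ± 0.10 (adjusted p = 2.5e-05), from 76.7 ± 10.7 to 210 ± 43.4 CPM and from 76.9 ± 7.75 to 143 ± 20.4 CPM. In SCC25 COL4A5 was at 86, 82.5, 86.8, 93.7 and 104 CPM with PBS and at 104, 123, 129, 148 and 146 CPM with CTX, so that CTX day 1 and PBS day 5 met at 104 CPM. It rose by 0.51 ± 0.10 (adjusted p = 0.004), and by 0.32 ± 0.10 (adjusted p = 0.059) on flow cell A alone. COL4A6 in SCC25 was at 37.3 ± 1.19 and 41 ± 2.32 CPM, a difference of 0.13 ± 0.06 (adjusted p = 0.12).

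COL7A1 (chr3:48601506-48632762), the anchoring fibril collagen, was at 286, 243, 144, 126 and 150 CPM in SCC1 with PBS and at 526, 600, 614, 683 and 790 CPM with CTX, without overlap. It rose by 1.77 ± 0.22 (adjusted p = 3.9e-05). In SCC6 it was at 142, 31.3, 19.8, 21.6 and 13.7 CPM with PBS and at 57, 60.8, 50.5, 150 and 126 CPM with CTX, so PBS of day 1 on flow cell C lay above 4 CTX values. The change was 0.94 ± 0.60 (adjusted p = 0.26). In fits that leave out PBS day 1, it was 1.38 ± 0.22 (adjusted p = 0.0012) within flow cell D and 1.91 ± 0.36 (adjusted p = 0.0032) with the replicate block. In SCC25 it was at 279 ± 35.7 CPM with PBS and 258 ± 62.3 CPM with CTX (adjusted p = 0.65).

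COL15A1 and COL18A1 are the multiplexins, proteoglycan collagens at the basement membrane. COL15A1 was at 1.12, 1.21, 0.927, 1.09 and 0.623 CPM in SCC6 with PBS and at 2.87, 2.17, 4.5, 3.64 and 3.72 CPM with CTX, without overlap, and rose by 1.74 ± 0.24 (adjusted p = 3e-04). COL18A1 was at 51.5, 13.5, 11.7, 12 and 11.1 CPM in SCC6 with PBS and at 31.6, 19.7, 38.9, 125 and 97.2 CPM with CTX. PBS of day 1 again lay among the CTX values, and the change of 1.63 ± 0.57 was at the threshold (adjusted p = 0.05). Without single libraries it ran from 1.22 (adjusted p = 0.13) without CTX day 4 to 2.35 (adjusted p = 0.0039) without PBS day 1, and 7 of them lost the call. COL18A1 has 67.5% GC in its transcripts, and it was higher by 1.32 ± 0.19 (adjusted p = 0.00073) within flow cell D and by 2.15 ± 0.41 (adjusted p = 0.0033) with the replicate block. These fits leave out PBS day 1. In SCC1 COL18A1 rose from 1.93 ± 0.499 to 4.75 ± 3.02 CPM (1.31 ± 0.39, adjusted p = 0.016). Against PBS day 5 alone, COL18A1, COL2A1 and COL28A1 no longer passed in SCC1 (adjusted p = 0.24, 0.13 and 0.19), while their changes of 1.57 ± 0.84, 1.18 ± 0.48 and 0.65 ± 0.31 were larger than the 1.31, 0.95 and 0.54 over all 5 PBS libraries, with larger errors.

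FACIT collagens were called higher in 2 of 4 tested in SCC1, 4 of 4 in SCC6 and 3 of 6 in SCC25, with none lower. Of all genes tested, 22.7%, 15.6% and 8.8% were higher in the same lines. COL12A1, which coats collagen I fibrils, rose in all 3 lines, by 1.42 ± 0.12 in SCC1 (134 ± 19.1 to 355 ± 56 CPM), 1.62 ± 0.18 in SCC6 (71.2 ± 21.3 to 222 ± 37.7 CPM) and 0.18 ± 0.05 in SCC25 (163 ± 2.41 to 186 ± 14.1 CPM), the last with 0.08 ± 0.06 (adjusted p = 0.41) on flow cell A alone. COL16A1 was at 2.59, 1.18, 0.811, 1.22 and 1.36 CPM in SCC6 with PBS and at 3.24, 2.3, 2.7, 11 and 10.1 CPM with CTX. Its groups overlapped at CTX 2b, and it rose by 2.02 ± 0.49 (adjusted p = 0.0094), or by 1.26 ± 0.22 within flow cell D. In SCC1 COL16A1 rose by 1.16 ± 0.08 (adjusted p = 1.1e-06), from 18.5 ± 2.13 to 41.2 ± 2.31 CPM.

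COL9A2 encodes a chain of collagen IX, which in cartilage sits on collagen II fibrils. In SCC25 it was at 3.77, 4.41, 4.01, 3.33 and 4.93 CPM with PBS and at 8.76, 9, 3.87, 5.47 and 6.27 CPM with CTX, with day 3 among the PBS values. It rose by 0.70 ± 0.21 (adjusted p = 0.037). Without single libraries the change was 0.58 to 0.85, and the call was lost for 7 of them, with an adjusted p of up to 0.083. On flow cell A alone, which holds only days 1 and 2 of CTX, it was 1.12 ± 0.14 (adjusted p = 0.0017), and with GC trends removed 0.80 ± 0.07 (adjusted p = 1.6e-05). COL9A2 was also higher in SCC6 (1.43 ± 0.39, adjusted p = 0.017), where the 2 highest values, 5.36 and 4.05 CPM, were on flow cell E and the change within flow cell D was 0.63 ± 0.21 (adjusted p = 0.05). COL20A1 rose 13.5-fold in SCC6 from 0.109 ± 0.0761 to 1.51 ± 1.28 CPM, a log2 change of 3.75 that was 2.64 ± 0.55 (adjusted p = 0.0054) within flow cell D. COL21A1 rose 1.93-fold in SCC25 from 0.461 ± 0.148 to 0.895 ± 0.155 CPM. Both were at levels of few reads.

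The other collagens held most of the members that fell in SCC1 and SCC6. In SCC1, 1 of 8 tested was higher and 4 were lower, against 22.7% and 22.1% of all genes. In SCC6 2 of 6 were higher and 2 lower, against 15.6% and 14.6%. In SCC25 1 of 9 was higher and 1 lower (11.1% each), near the 8.8% and 9.5% of all genes. COL6A1 (chr21:47401684-47424964) and COL6A2 (chr21:47518026-47552762) are neighbours whose products, with COL6A3, form collagen VI filaments around cells. In SCC1 COL6A1 was at 12, 18.1, 22.8, 27.4 and 20.9 CPM with PBS and at 8.29, 7.79, 7.26, 5.99 and 6.72 CPM with CTX, and COL6A2 at 15, 23.9, 30.3, 37 and 29.7 CPM and at 11, 8.74, 7.68, 5.2 and 5.88 CPM. Each CTX library was below each PBS library for both genes. COL6A1 fell by 1.48 ± 0.18 on the log2 scale (adjusted p = 3.4e-05), COL6A2 fell by 1.81 ± 0.24 (adjusted p = 6.4e-05) and COL6A3 fell by 1.39 ± 0.23 (adjusted p = 0.00038), from 1.23 ± 0.24 to 0.465 ± 0.15 CPM. Against PBS day 5 alone COL6A1 and COL6A2 were still lower, by −1.53 ± 0.16 (adjusted p = 0.00049) and −1.95 ± 0.28 (adjusted p = 0.0027), and COL6A3 had −1.32 ± 0.39 (adjusted p = 0.051). In SCC6 COL6A1 was instead higher, at 1.40 ± 0.777 and 4.17 ± 2.64 CPM (1.56 ± 0.45, adjusted p = 0.022). The groups overlapped, since PBS day 1 at 2.74 CPM lay above CTX 2a, 2b and 3 at 2.23, 2.08 and 2.42 CPM. The 2 highest CTX values of COL6A1, 7.09 and 7.03 CPM, were on flow cell E. In SCC25 COL6A1 was at 122 ± 9.34 and 115 ± 33.3 CPM (adjusted p = 0.78), where CTX day 3 was the lowest library at 64.9 CPM.

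COL8A1 (chr3:99357319-99518070) moved in different directions. In SCC1 it was at 224, 249, 209, 205 and 197 CPM with PBS on days 1 to 5 (158 CPM on day 0) and at 96, 190, 180, 150 and 117 CPM with CTX, and fell by 0.56 ± 0.16 (adjusted p = 0.012), with −0.43 ± 0.30 (adjusted p = 0.37) against PBS day 5 alone. In SCC25 it was at 35.3, 34.1, 32.5, 31 and 31.9 CPM with PBS and at 43.6, 46.2, 50.5, 53.5 and 58.8 CPM with CTX, without overlap, and rose by 0.61 ± 0.08 (adjusted p = 0.00051). In SCC6 it fell by 1.37 ± 0.26 (adjusted p = 0.0024), from 3.05 ± 1.08 to 1.19 ± 0.202 CPM.

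COL17A1, the collagen of highest level in untreated cells, fell in SCC25 and was not called in the other lines over days 1 to 5. In SCC25 it was at 2010, 2030, 1880, 1880 and 2050 CPM with PBS and at 1780, 1720, 1460, 1700 and 1650 CPM with CTX, without overlap, and fell by 0.25 ± 0.06 (adjusted p = 0.013), with −0.17 ± 0.06 (adjusted p = 0.087) on flow cell A alone. In SCC1 it was at 1020 ± 51.6 and 926 ± 79.9 CPM (adjusted p = 0.1). In SCC6 it was at 252, 273, 242, 323 and 320 CPM with CTX, and PBS covered both higher and lower values, from 401 down to 86.1 CPM on days 1 to 5. The difference there was 0.53 ± 0.35 (adjusted p = 0.28). In fits that leave out PBS day 1, it passed at 0.86 ± 0.27 (adjusted p = 0.04) within flow cell D and at 1.00 ± 0.26 (adjusted p = 0.014) with the replicate block. Its level fell by 0.57 ± 0.05 (log2) per day with PBS (adjusted p = 0.00016) and had a slope of 0.11 ± 0.06 per day with CTX (adjusted p = 0.18), a difference of 0.68 ± 0.07 per day (adjusted p = 0.00087). Among the smaller members, COL28A1 rose 1.45-fold in SCC1 and 1.69-fold in SCC6, and COL13A1 fell by 1.25 ± 0.24 in SCC6 (adjusted p = 0.0026), from 1.61 ± 0.414 to 0.675 ± 0.173 CPM.

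Since collagen molecules are assembled from fixed combinations of chains, levels per kilobase of partner chains were set side by side in each library. In SCC1 the median ratio of COL1A1 to COL1A2 was 1.62 (PBS) and 1.24 (CTX), and in SCC25 it was 0.77 and 0.584. In SCC6 it was 11.2 with PBS (4.83 to 48.7, n = 6) and 68.4 with CTX (19.2 to 441, n = 5), where COL1A2 rested on few reads. COL5A1 to COL5A2 was likewise 17.8 and 113 in SCC6, against 4.25 and 2.65 in SCC25 and 4.59 and 9.18 in SCC1.

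The head-to-head type IV pair COL4A1 and COL4A2 stayed close to each other. For SCC1 its median ratio was 0.621 (PBS) and 0.691 (CTX), for SCC6 0.627 and 0.867, and for SCC25 1.12 and 1.19, and over the 33 libraries it went no lower than 0.469 and no higher than 1.42. COL4A5 to COL4A6 was 1.05 with PBS (0.982 to 1.19) and 1.49 with CTX (1.39 to 1.69) in SCC1, and 2.43 (2.19 to 2.78) and 3.41 (2.81 to 3.62) in SCC25. In both lines the ranges of the treatments did not meet. COL6A1 to COL6A2 was 0.619 and 0.775 in SCC1 and 0.787 and 0.842 in SCC25.

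**Figure D3:**
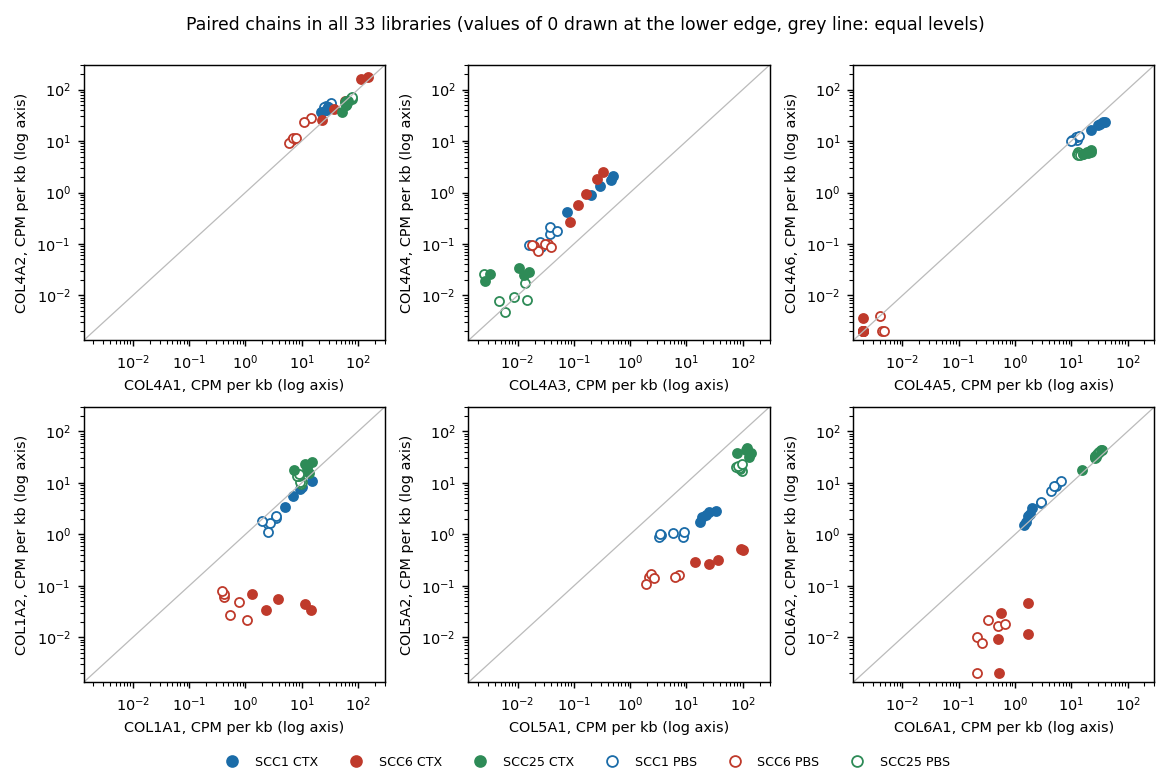
Levels per kilobase (CPM per kb, both axes log scale) of 6 chain pairs in the 33 libraries, coloured by line and treatment, with a line of equal level and values of 0 drawn at the edge. COL4A1 and COL4A2 follow the line of equal level in all lines, whereas SCC6 lies far from it for COL1A1 with COL1A2 and for COL5A1 with COL5A2.

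Whether the response itself differed between lines was tested in 1 fit over the 30 libraries of days 1 to 5. Of 38 collagens tested, 22 had a CTX change that differed between lines, where 26.1% of all genes did. SCC6 and SCC1 differed in 13 (11 with a higher and 2 with a lower change in SCC6, background 19.3%), SCC25 and SCC1 in 9 (3 higher and 6 lower in SCC25, background 8.52%), and SCC6 and SCC25 in 17 (15 higher and 2 lower in SCC6, background 17.5%). These counts hold members below the filter in a compared line, which entered the joint fit through another group. Between SCC6 and SCC1 they were COL11A1, COL15A1, COL1A2, COL20A1, COL8A2 and COL9A3. Between SCC6 and SCC25 they were COL2A1, COL3A1, COL8A2, COL9A3 and COL20A1. COL4A1 had a change 3.35 ± 0.40 higher in SCC6 than in SCC1 (log2, adjusted p = 3.9e-07) and 3.51 ± 0.40 higher than in SCC25 (adjusted p = 4.6e-07). For COL4A4 the changes in SCC6 and SCC1 were 0.52 ± 0.61 apart (adjusted p = 0.61). COL12A1 had a change 1.22 ± 0.20 lower in SCC25 than in SCC1 (adjusted p = 8.9e-05) and 0.23 ± 0.20 higher in SCC6 than in SCC1 (adjusted p = 0.47). COL5A2, raised in each line, gave no difference that passed (adjusted p = 0.22). The lines were largely run on separate flow cells, so that a difference between lines and flow cells cannot be fully told apart.

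**Figure D4:**
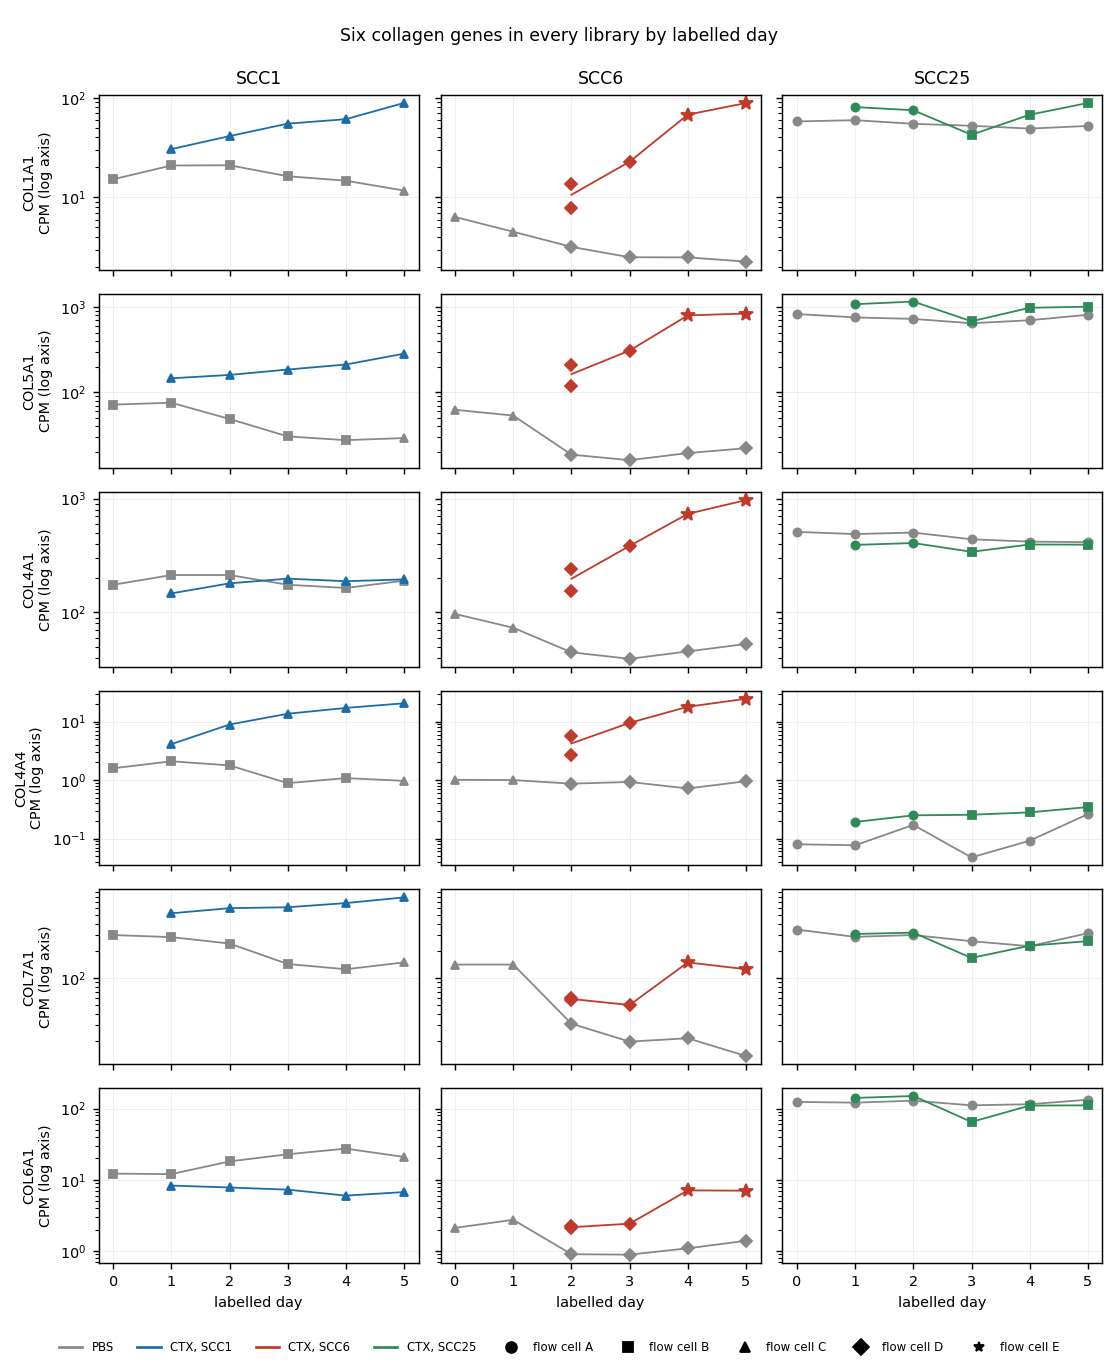
CPM (log scale) of COL1A1, COL5A1, COL4A1, COL4A4, COL7A1 and COL6A1 by labelled day in the 3 lines, with PBS and CTX in separate colours and the flow cell as marker. In SCC1 COL1A1 goes from 30.5 to 88.6 CPM over CTX days 1 to 5 while PBS goes from 20.9 to 11.7 CPM, and in SCC6 the CTX days 4 and 5 of flow cell E are the highest points of COL1A1, COL5A1 and COL4A1.

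A minority of tested collagens in SCC1 and SCC25, and most in SCC6, had a slope over the days of CTX treatment. The slope of log2 counts per labelled day was positive for 8 of 27 tested collagens in SCC1 with CTX, where 4.46% of all genes had a slope that passed, and negative for 3 with PBS (background 2.45%). The slopes differed between treatments for 7 collagens (background 0.617%). COL1A1 in SCC1 changed by 0.37 ± 0.03 per day with CTX (adjusted p = 0.00026) and by −0.22 ± 0.03 per day with PBS (adjusted p = 0.0054), a difference of 0.59 ± 0.04 (adjusted p = 5e-04). COL5A1 had a difference of 0.60 ± 0.08 per day (adjusted p = 0.0083), COL4A4 of 0.85 ± 0.12 (adjusted p = 0.014), COL4A3 of 0.97 ± 0.18 (adjusted p = 0.043), COL1A2 of 0.52 ± 0.10 (adjusted p = 0.042) and COL7A1 of 0.42 ± 0.07 (adjusted p = 0.037). COL6A2 went the other way, by −0.51 ± 0.09 (adjusted p = 0.043). The count of 7 ranged from 1 to 12 when single libraries were left out.

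In SCC6 the slope was positive for 15 of 23 collagens with CTX (background 20.1%), and with PBS it was positive for 1 and negative for 6 (background 15.6%). The difference of slopes passed for 16, all positive (background 28.2%). These slopes run along with the flow cells, since CTX days 4 and 5 lay on flow cell E and PBS day 1 on flow cell C, and with flow cell as a covariate the count was 0 for the CTX slope, 3 for the PBS slope and 0 for their difference. In that fit 0%, 3.56% and 0% of all genes passed, so these counts say nothing particular about collagens. In SCC25, 3 collagens had a positive CTX slope (background 1.09%), namely COL3A1 at 0.31 ± 0.03 per day (adjusted p = 0.0018), COL1A2 at 0.17 ± 0.03 (adjusted p = 0.037) and COL5A2 at 0.13 ± 0.02 (adjusted p = 0.011). The CTX slopes of SCC25 also run along with the flow cells, since CTX days 1 and 2 lay on flow cell A and days 3 to 5 on flow cell B. With flow cell as a covariate none of them passed, and the share of all genes in that fit is not given here. With PBS, COL3A1 also had a positive slope, 0.19 ± 0.03 (adjusted p = 0.012), and COL22A1 a negative one, −0.22 ± 0.05 (adjusted p = 0.039, background 2.23%). No difference of slopes passed in SCC25, where 0% of all genes passed in edgeR's test. At an unadjusted p under 0.05 there were 5 of 33 collagens and 1180 of all 19101 genes tested. DESeq2 called 1 collagen, and its share over all genes is not given here.

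CTX day 3 of SCC25 was the lowest of the 5 CTX libraries for several GC-rich collagens, including COL5A1 (60.3% GC), COL1A1 (61.6%), COL18A1 (67.5%) and COL6A1 (63.6%). Without it, 12 collagens were higher and 1 lower in SCC25, against 10% and 10.6% of all genes. With each library's trend over GC content removed, 15 of 33 were higher and 4 lower, against 13.4% and 22.5% of all genes in that fit, and COL1A1 (0.47 ± 0.10, adjusted p = 0.0034), COL16A1 (0.26 ± 0.04, adjusted p = 0.00019) and COL18A1 (0.32 ± 0.07, adjusted p = 0.0032) then passed. In SCC6 the same removal left COL5A1 at 3.82 ± 0.43, COL1A1 at 3.31 ± 0.49 and COL4A1 at 3.19 ± 0.46.

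The proteins that modify, cut, cross-link, bind and degrade collagen were followed as fixed lists. Of the list for modification and folding, 19 symbols were in the table. In SCC6, 10 of 19 were higher with CTX and none lower, in SCC1 3 of 18 were higher and 3 lower, and in SCC25 2 of 18 were higher and none lower. In SCC6 the largest changes were those of the prolyl 3-hydroxylase P3H2 (1.56 ± 0.11, adjusted p = 6e-06) and its relative P3H3 (1.51 ± 0.44, adjusted p = 0.021). SERPINH1, the collagen chaperone HSP47, was picked after its values were seen and went from 95.9 to 269 CPM in SCC6 (1.47 ± 0.19, adjusted p = 2e-04), from 203 to 205 CPM in SCC1 (adjusted p = 0.9) and from 261 to 276 CPM in SCC25 (adjusted p = 0.62). The lysyl hydroxylase PLOD2 had the largest change of this list in SCC1, −0.59 ± 0.09 (adjusted p = 0.00028), and in SCC25, 0.45 ± 0.13 (adjusted p = 0.031). It was followed by CTAGE5, of the collagen export machinery, in SCC1 (0.43 ± 0.08, adjusted p = 0.00059) and by P3H2 in SCC25 (0.25 ± 0.06, adjusted p = 0.019).

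Of the enzymes for propeptide cleavage and cross-linking, 5 of 9 tested were higher in SCC6 and none lower, 2 of 8 were higher and 5 lower in SCC1, and 1 of 12 was higher in SCC25. The lysyl oxidase LOXL2 went from 23.7 to 138 CPM in SCC6 (2.53 ± 0.34, adjusted p = 0.00028) and BMP1, the procollagen C-proteinase, from 28 to 89.9 CPM (1.66 ± 0.28, adjusted p = 0.0011). In SCC1 BMP1 rose by 1.26 ± 0.16 (adjusted p = 4.1e-05) and its relative TLL1 by 1.45 ± 0.16 (adjusted p = 1.5e-05), and in SCC25 TLL1 rose by 0.30 ± 0.07 (adjusted p = 0.017).

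Of the 7 receptors, 2 were lower in SCC6 and none higher, 1 was higher and 4 lower in SCC1, and 2 were higher and 1 lower in SCC25. ITGA2, the integrin chain that binds collagen I, fell in each line, by 2.59 ± 0.14 in SCC1 (895 to 148 CPM), 1.29 ± 0.20 in SCC6 (1240 to 512 CPM) and 0.38 ± 0.11 in SCC25 (269 to 208 CPM). ITGA1 fell by 2.00 ± 0.21 in SCC6 and ITGA10 by 1.33 ± 0.23 in SCC1, whereas ITGA11 rose by 0.71 ± 0.17 in SCC25. Of the collagen-cleaving proteases, 4 of 7 were higher and 2 lower in SCC6, 2 of 6 were lower in SCC1, and 3 of 6 were higher and 1 lower in SCC25. The interstitial collagenase MMP1 went from 1260 to 9.84 CPM in SCC6 and from 19.1 to 0.357 CPM in SCC1, while the gelatinase MMP2 went from 28.8 to 162 CPM in SCC6. MMP9 fell by 3.22 ± 0.24 in SCC1 and 1.56 ± 0.32 in SCC25, and MMP13 rose by 0.52 ± 0.11 in SCC25. The share of called genes among all genes is as given for each line above.

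**Figure D5:**
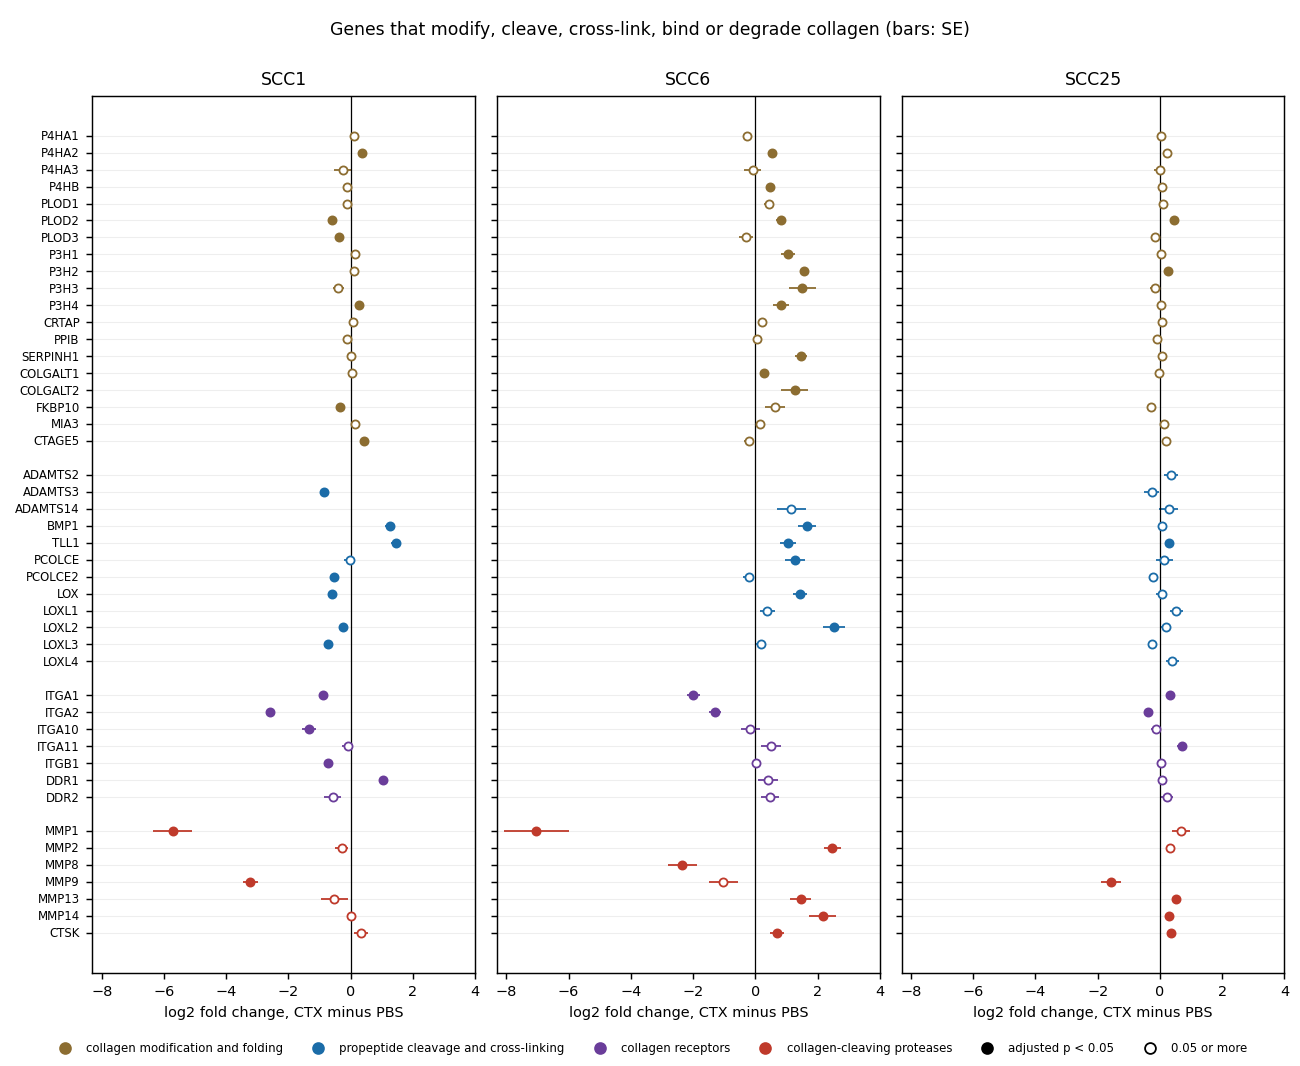
Log2 fold change (CTX over PBS, days 1 to 5, edgeR) of the genes for collagen modification, processing, receptors and proteases in the 3 lines, with error bars for the standard error and filled points for an adjusted p under 0.05. In SCC6 most called points of the first pair of lists lie above 0, MMP1 is at −7.04, and ITGA2 is below 0 in every line.

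Markers of other cell types were followed beside the collagens. As background, CTX raised 22.7% of all genes tested for SCC1 and lowered 22.1%. SCC6 had 15.6% of its tested genes higher and 14.6% lower, whereas SCC25 had 8.8% higher and 9.5% lower. Of 12 fibroblast markers, 6 of 6 tested were higher in SCC1 with CTX, 2 of 4 in SCC6, and 4 of 11 in SCC25 where 1 was lower. Their summed level was 68.3 to 88.6 CPM with PBS and 100 to 152 CPM with CTX in SCC1, 63.2 to 104 and 103 to 199 CPM in SCC6, and 174 to 209 and 250 to 352 CPM in SCC25. Most of it came from FBLN1 in SCC6, from FBLN1 and FAP in SCC1, and from FBLN1, FAP and LUM in SCC25. On the same list, PDGFRA, THY1 and TWIST2 had means of at most 0.135 CPM in both treatments in SCC1 and SCC6. In SCC25 these 3 genes were at 1.21, 2.51 and 9.43 CPM with PBS and at 0.75, 1.59 and 7.31 CPM with CTX, and THY1 was called lower. Other markers on the list rose in SCC1 from low levels, DCN from 0.129 to 0.948, MFAP5 from 0.208 to 1.05 and POSTN from 0.762 to 2.66 CPM. PDGFRB went from 0.076 to 3.95 CPM in SCC6, where FBLN1 was also called higher. In SCC25 LUM went from 29.1 to 84.2 CPM, and DCN, FAP and FBLN1 were also called higher. The squamous markers summed to 7470 to 9190 CPM with PBS and 9920 to 15800 CPM with CTX in SCC1, with 9 of 12 higher and 2 lower. They summed to 3020 to 7910 and 4490 to 5170 CPM in SCC6, where 3 were higher and 4 lower, among them EPCAM (−0.93 ± 0.16) and KRT6A (−3.54 ± 0.77). In SCC25 they summed to 15400 to 21800 and 17400 to 21000 CPM, with 2 higher and 2 lower. Endothelial, immune and chondrocyte lists had none higher in SCC1 and SCC25 and 1 chondrocyte gene higher in SCC6. Each of these lists had 1 gene lower in each line, which was CD68 for the immune and SOX9 for the chondrocyte list. Their highest sums in any library were 19.5, 233 and 227 CPM. CD68 alone held 231 CPM of the immune sum and SOX9 alone 224 CPM of the chondrocyte sum. The part of any marker list in the collagen changes was not tested.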

How the data were processed

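The expected counts per gene symbol were made by the authors from Salmon transcript estimates imported with tximport, and the deposited table is not normalised. The submitters' processing notes name Salmon 0.8.2 and hg19 or GRCh37. No source used here gives the annotation or the tximport setting. Of the values, 63.2% were whole, and all were rounded. In R 4.3.3, genes were filtered with filterByExpr (minimum count 10), scaled by TMM and tested with edgeR 4.0.16 (quasi-likelihood, two-sided, Benjamini-Hochberg over all genes tested, called at 0.05), with DESeq2 1.42.0 as an alternative. CTX and PBS of days 1 to 5 were compared in each line, 5 libraries each, and the scripts were tested on simulated data. Libraries held 28508758 to 80727478 counts. Many collagens under about 1 CPM were below the count filter, and their changes were not tested. Some with a mean under 1 CPM were called, such as COL20A1 in SCC6 and COL21A1 in SCC25. Levels were divided by the longest GENCODE transcript on GRCh37, in place of the planned median length, which took short incomplete transcripts. Every library is printed for up to 8 called members per line of at least 1 CPM with the largest fold, and 2 called genes per list and line are named. The members and lists were chosen with earlier results of these data known.

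PBS and CTX labels share the day of collection, which served as the replicate block. SCC6 has no CTX library of day 1, so its PBS day 1 does not enter the comparison with that block. Deviations of libraries of the same day correlated at 0.06 to 0.19 in SCC1, −0.06 to 0.29 in SCC6 and 0.11 to 0.22 in SCC25.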

Additional observations from a re-analysis of the deposited data

Results flagged for a closer look

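In groups of 5 libraries, 3 of 48 checked held a value far from the others, and chance flags about 1 group in 20. All 3 were PBS day 1 of SCC6, the single library of its group on flow cell C, with COL5A1 at 53.4 CPM, COL4A2 at 154 CPM and COL18A1 at 51.5 CPM.

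The change with CTX differed between lines, by the test of the difference in edgeR, for the following named members, with log2 differences of the changes. Between SCC6 and SCC1 these were 2.03 for COL1A1, 1.90 for COL5A1, 3.35 for COL4A1, 3.03 for COL4A2, 3.09 for COL6A1 and 1.51 for COL9A2, all higher in SCC6, and −0.78 for COL8A1. Between SCC6 and SCC25 they were 3.34 for COL1A1, 3.70 for COL5A1, 3.51 for COL4A1, 3.11 for COL4A2, 2.78 for COL4A4, 1.86 for COL15A1, 1.90 for COL16A1 and 1.69 for COL6A1, and −1.97 for COL8A1. Between SCC25 and SCC1 they were −1.31 for COL1A2, −1.80 for COL5A1, −0.94 for COL4A5 and −1.87 for COL7A1, and 1.41 for COL6A1, 1.68 for COL6A2 and 1.18 for COL8A1.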

How the results depend on the processing

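Counts of collagens called higher in SCC1 and SCC6 and lower in SCC6, and the counts that differed between lines with and without treatment, stayed within 1.5 times of the reported ones under the alternatives run, which were DESeq2, its size factors in edgeR, no filter, day 0 added, the day as a replicate block, flow cell as a covariate or 1 flow cell alone, a fold threshold, and, chosen after seeing the data, GC trends removed and no scaling. The 5 lower in SCC1 became 3 with flow cell as a covariate, 2 within a flow cell and 3 at an absolute log2 change of 1 or more. The 9 higher in SCC25 became 1 at that threshold, 15 with GC trends removed and 16 with these and the replicate block together. The 2 lower in SCC25 became 5 with the replicate block, 0 with flow cell as a covariate, 1 within a flow cell, 0 at the fold threshold, 4 with GC trends removed, 6 with these and the block, and 1 with no scaling. The paired block gave 16 higher and 5 lower in SCC1, 20 and 2 in SCC6, 9 higher in SCC25 and 26 between lines.

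For day slopes, DESeq2 gave 6 for PBS and 12 for the difference in SCC1 (reported 3 and 7), and 6 for CTX and 1 for the difference in SCC25 (reported 3 and 0). Flow cell as a covariate gave 5 and 12 in SCC1, 0 for CTX, 3 for PBS and 0 for the difference in SCC6 (reported 15, 7 and 16), and 0 for CTX in SCC25. GC trends removed gave 6 for CTX, 5 for PBS (reported 2) and 1 for the difference in SCC25. Median transcript lengths in place of the longest moved COL17A1 with PBS to 517 CPM per kilobase in SCC1, 128 in SCC6 and 1050 in SCC25.

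Leaving out 1 library at a time gave 1 to 3 lower in SCC25 and 6 to 12 higher. Slope counts were 2 to 12 for CTX, 1 to 4 for PBS and 1 to 12 for the difference in SCC1, 5 to 19, 2 to 7 and 8 to 17 in SCC6, and 0 to 10, 0 to 6 and 0 to 1 in SCC25. The lowest SCC6 counts came without CTX 2b (5) and without PBS day 1 (8), and the 10 in SCC25 without CTX day 3. Of the 24 named fold changes, 21 kept their call with flow cell as a covariate, and the lost ones were COL1A2, COL4A5 and COL17A1 in SCC25. No direction turned. Against 1 flow cell, SCC1 has a lone PBS library that is assumed to vary like the others.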
